A study of Homo sapiens with 6 samples.

Results

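The Fc gamma receptor genes examined here were 7 of the 19330 transcripts in the table: FCGR1A and its near-copy FCGR1B, the low-affinity receptor genes FCGR2A, FCGR2B and FCGR2C, the signalling chain gene FCER1G and the neonatal Fc receptor gene FCGRT. They were taken by gene symbol, and the counts of FCGR1A and FCGR1B were also added together in each library. The set was assembled around FCGR1A because its footprints had already been seen to be higher in N6AMT1-depleted cells, so the differences between the groups are given for the 7 genes as a description, without p-values. The cells were K562, a human chronic myelogenous leukemia line with erythroid features. All libraries came from cells that carried the lentiviral pLentiCRISPRv2 vector and had been selected with puromycin. In 3 libraries the guide RNA targeted N6AMT1 (sgN6AMT1), a gene for a methyltransferase of the translation release factor eRF1. For the other 3 (sgCtrl) the labels name guides against the olfactory receptor genes OR11A1 and OR2M49. The authors' methods write the second gene as OR2M4. Cells were taken 10 days after infection as transduced cultures, with no rescue sample in the table, and the labels do not say which control guide each sgCtrl library carried.

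Fc receptors bind the constant part of antibodies. The FCGR1A product, CD64, is the high-affinity receptor for IgG and is typical of monocytes and macrophages, where interferon gamma is known to induce it and where the myeloid factor PU.1, encoded by SPI1, acts at its promoter. CD64 signals through the FCER1G product, a small chain with an activating ITAM motif, whereas FCGR2A and FCGR2C carry an ITAM of their own and FCGR2B carries an inhibitory ITIM. FCGRT encodes the heavy chain of FcRn, which pairs with beta-2-microglobulin and recycles IgG inside cells.

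Ribosome profiling counts the mRNA stretches that ribosomes shield from a nuclease. Library totals were 2031944 to 2969736 counts in sgCtrl and 1821356 to 2277616 in sgN6AMT1, so 1 count was worth 0.345 to 0.543 CPM. Levels are given as CPM, counts per 1000000 of a library total adjusted by TMM factors, which are set from the bulk of genes. Counts are listed for replicates 1, 2 and 3, with sgCtrl first and sgN6AMT1 after the word against. The targeted gene checked the labels: N6AMT1 had 25, 24 and 34 counts in sgCtrl against 10, 9 and 8 in sgN6AMT1. The K562 identity was also checked, and the erythroid globin HBG1 stood at closely similar levels in both groups (9553 ± 307 CPM in sgCtrl and 9483 ± 172 CPM in sgN6AMT1, SD, n = 3). HBG1 does not stand for all K562 markers: of 18 listed, 6 were higher and 5 lower in sgN6AMT1 at the threshold given next. Of the 9202 genes with enough counts to test, 26.9% passed a threshold of 0.05 on the Benjamini-Hochberg adjusted p of edgeR's quasi-likelihood test, 12.9% higher and 13.9% lower in sgN6AMT1, and 18.4% were higher with no overlap between the groups.

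FCGR1A lies on the plus strand of chromosome 1 at 149782694 to 149791675 (GRCh38) and has a coding sequence (CDS) of 1125 bases over 6 coding exons. FCGR1B lies near the centromere of the same chromosome at 121087298 to 121097161, and the GENCODE 44 annotation now lists it as FCGR1BP, a transcribed pseudogene without a CDS. A further copy, the pseudogene FCGR1CP at 143874793 to 143883575, has no row in the table. The table's FCGR1B transcript matched 833 of 840 aligned bases of the FCGR1A CDS but had no counterpart to 285 bases that correspond to coding exon 5. Footprints of 26 or 34 bases were kept by the authors. Of all 26-base windows of the FCGR1A CDS, 61.2% (673 of 1100) also occurred in the FCGR1B transcript, and 57.2% (625 of 1092) of the 34-base windows did, so most footprints on FCGR1A could equally have been placed on FCGR1B.

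The places where the copies could be told apart are shown for 2 of the single-base differences, from the GENCODE 44 transcripts on GRCh38, 5′ to 3′. Positions are counted from 1 at the first base of the FCGR1A start codon, the first letter of each substitution is the FCGR1A base, and the capital marks the differing base. C344T lies in coding exon 4 and G970A in coding exon 6. Isolated substitutions also occurred at G115A and T159C in coding exon 3.
FCGR1A, around C344T: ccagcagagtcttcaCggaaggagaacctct
FCGR1B, around C344T: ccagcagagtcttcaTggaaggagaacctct
FCGR1A, around G970A: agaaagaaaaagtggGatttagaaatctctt
FCGR1B, around G970A: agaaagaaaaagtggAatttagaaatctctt

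Footprints listed under FCGR1A numbered 3, 0 and 2 across control libraries, against 52, 39 and 39 after N6AMT1 depletion. Those listed under FCGR1B numbered 0, 1 and 1 against 33, 50 and 32. Every sgN6AMT1 library was above every sgCtrl library for both copies, where 18.4% of all tested genes were higher with no overlap. The sgCtrl libraries were at or below a floor of 3 counts. In CPM, FCGR1A stood at 0.831 ± 0.765 in sgCtrl and 20.3 ± 3.07 in sgN6AMT1 (SD, n = 3), and FCGR1B at 0.279 ± 0.253 and 17.8 ± 3.59. Because the copies share most windows, their sum is the steadier quantity.

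The sum of FCGR1A and FCGR1B came to 3, 1 and 3 counts against 85, 89 and 71. As CPM this was 1.11 ± 0.663 against 38.1 ± 0.718 (SD, n = 3). The 3 sgN6AMT1 libraries lay within 37.3 to 38.5 CPM, closer together for the sum than for either copy. The pooled count ratio, scaled for library size, was 39.0 (95% exact interval 18.7 to 98.1, which covers counting error only). The fitted log2 fold change was 5.16 (SE 0.31) for the sum, 4.70 (SE 0.40) for FCGR1A and 5.70 (SE 0.48) for FCGR1B, with no p-value since the genes were selected on this contrast. With 7 counts in all of sgCtrl, the size of the fold rests on a few footprints: without sgCtrl replicate 2, the deepest library and the one with 1 count, the fitted value for the sum was 4.61 and that for FCGR1A was 3.96, and without sgCtrl replicate 1 it was 5.45 for both. Both copies entered the test through their sgN6AMT1 counts alone, since their sgCtrl counts were under the filter.

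**Figure D1:**
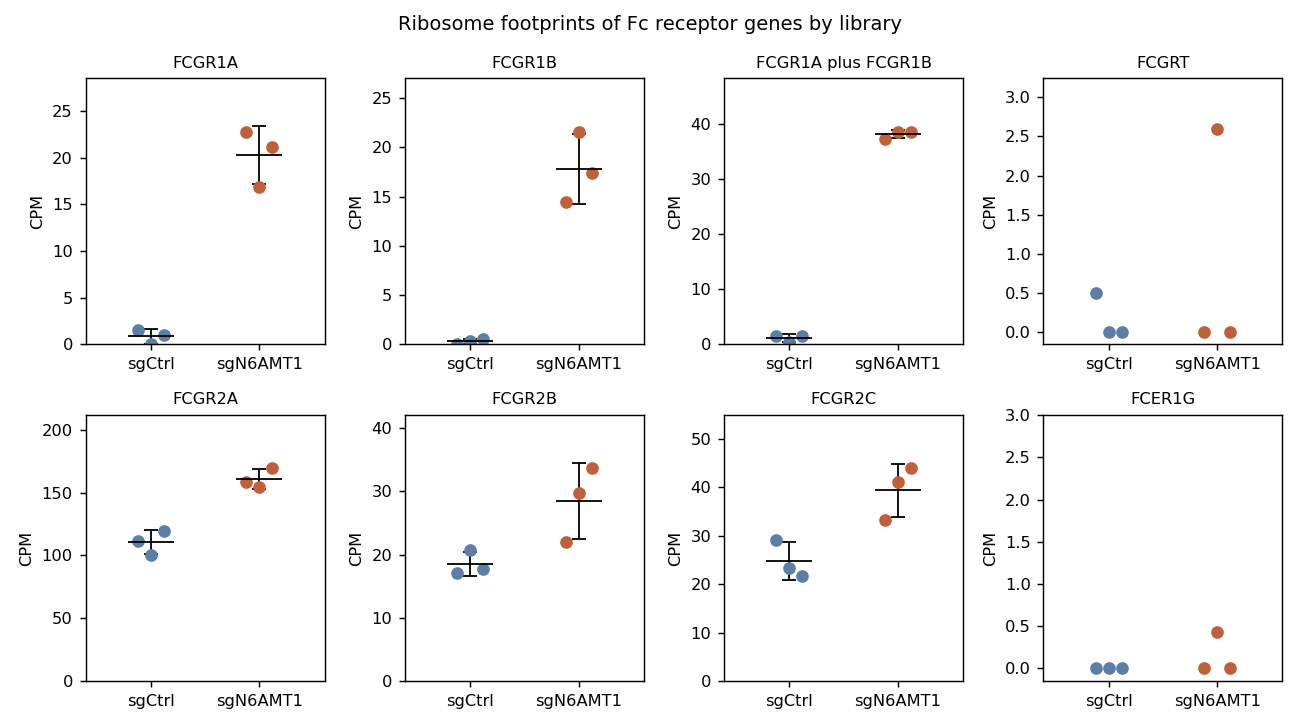
Footprints in CPM of each Fc receptor gene, and of the sum of FCGR1A and FCGR1B, in 3 sgCtrl (blue) and 3 sgN6AMT1 (orange) libraries; each panel has its own vertical axis, points are libraries, and bars are the mean and SD, left out for FCGRT and FCER1G. The sgN6AMT1 points lie above all sgCtrl points for the FCGR1 and FCGR2 genes, while FCER1G and FCGRT lie at or near 0 in both groups.

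FCGR1A held 61.2% of the joint counts in sgN6AMT1 replicate 1 (95% exact binomial interval 49.99 to 71.6%), 43.8% in replicate 2 (33.3 to 54.8%) and 54.9% in replicate 3 (42.7 to 66.8%). Over the 3 libraries the share was 53.1% of 245 counts (46.6 to 59.4%). The shares of the 3 libraries did not differ past the threshold (2-sided Fisher exact test, p = 0.0711), and in sgCtrl 7 joint counts were too few for a share. By default the aligner used for the table gives a read with equally good matches to 1 of them at random. The split alone therefore does not give how much each copy was translated. Counts are listed per transcript, without positions, so footprints on windows particular to FCGR1A could not be singled out. The strand setting of the counting is not given in the sources used here. The table's HIST2H2BF transcript, on the minus strand, runs from 149782689 to 149812373, a span that holds FCGR1A. HIST2H2BF had 1629, 2101 and 1641 counts against 1460, 1525 and 1325, lower in sgN6AMT1 after scaling. Whether its reads entered the FCGR1A counts was not tested.

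**Figure D2:**
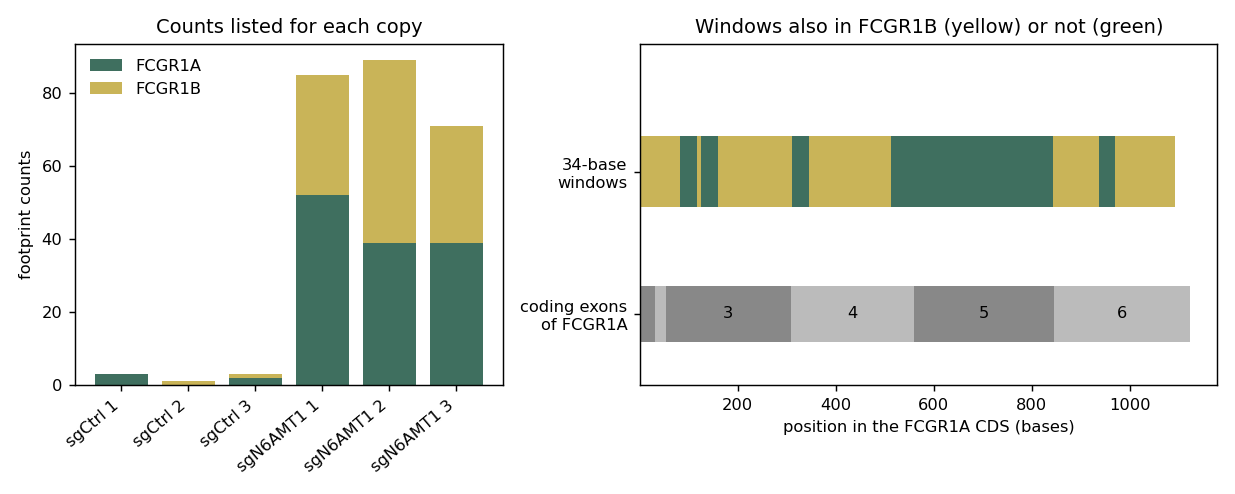
Left, footprint counts listed under FCGR1A (green) and FCGR1B (yellow) in each library, stacked. Right, along the FCGR1A CDS in bases, the 34-base windows that also occur in the FCGR1B transcript (yellow) or do not (green), above the coding exons in alternating greys; the sgN6AMT1 stacks reach 71 to 89 counts against 1 to 3 in sgCtrl, and the longest stretch particular to FCGR1A falls on coding exon 5.

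The FCGR2 genes lie together on chromosome 1, all on the plus strand: FCGR2A at 161505457 to 161519829, FCGR2C at 161581340 to 161599803 and FCGR2B, placed by its symbol, at 161663143 to 161678654. Unlike FCGR1A, they were well covered in the control cells. FCGR2A, an activating receptor, had 222, 292 and 243 counts in control libraries against 361, 358 and 312 in depleted ones, or 111 ± 9.59 against 161 ± 7.67 CPM (SD, n = 3). FCGR2B, the inhibitory receptor, had 34, 60 and 36 counts against 50, 69 and 62, or 18.5 ± 1.92 against 28.5 ± 5.99 CPM. FCGR2C, which joins an FCGR2B-like outer part to an FCGR2A-like inner part, had 58, 68 and 44 counts against 76, 95 and 81, or 24.8 ± 3.89 against 39.4 ± 5.51 CPM. In each of these genes all sgN6AMT1 libraries were above all sgCtrl libraries in CPM, as was also so for 18.4% of all tested genes. For FCGR2B the gap was small, from 20.7 CPM in the highest sgCtrl library to 21.9 CPM in the lowest sgN6AMT1 library.

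The fitted log2 fold changes were 0.55 (SE 0.083) for FCGR2A, 0.59 (SE 0.18) for FCGR2B and 0.67 (SE 0.15) for FCGR2C, and their summed counts gave 0.57 (SE 0.072). The sum went from 154 ± 7.94 to 229 ± 17.0 CPM (SD, n = 3), a pooled count ratio of 1.55 (95% exact interval 1.43 to 1.67). FCGR2 genes thus differed between the groups by far less, in fold, than the FCGR1 pair, although the difference in CPM was larger. FCGR2B had the largest SE of the 3. Its fitted value was 0.46 without sgN6AMT1 replicate 3 and 0.75 without sgN6AMT1 replicate 1.

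Reads on the FCGR2 genes were shared too. Of 26-base windows, 54.5% of the FCGR2A CDS also occurred in FCGR2B or FCGR2C, against 89.7% of the FCGR2C CDS in FCGR2A or FCGR2B. For FCGR2B the figure was 77.9%, taken from its longest coding transcript in GENCODE 44, since the table's own transcript was not matched there. The division of FCGR2 footprints among the genes was nearly the same in both groups: FCGR2A took 71.8% ± 3.01 (SD, n = 3) in sgCtrl and 70.4% ± 3.21 in sgN6AMT1, FCGR2B 12.1% ± 1.91 and 12.4% ± 1.83, and FCGR2C 16.1% ± 2.43 and 17.2% ± 1.40. How much of the FCGR2C and FCGR2B counts came from FCGR2A mRNA cannot be told apart in these data.

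FCER1G, the partner chain of CD64, lies at 161215279 to 161220699 of chromosome 1 and was almost without footprints. It had 0 counts in every sgCtrl library and 0, 1 and 0 in sgN6AMT1. A count of 0 allows up to 3 counts, or 1.03 to 1.51 CPM in the sgCtrl libraries, so a level below that was not detectable. FCGRT, at 49513154 to 49526333 of chromosome 19, had 1, 0 and 0 counts against 0, 6 and 0. All 6 of its sgN6AMT1 counts lay in replicate 2, and without that library the group had none. Neither gene passed the count filter, and no fold is given for either.

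In all, 5 of the 7 genes passed the count filter, FCGR1A and FCGR1B through their sgN6AMT1 libraries alone, and no count of calls is drawn from a set chosen on this contrast. The K562 cultures were measured in bulk, where a change in the number of cells with a given mRNA cannot be told apart from a change in each cell. Footprints follow mRNA abundance as well as translation, and RNA sequencing was not used here.

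Compared per length, as footprints per kilobase of CDS per 1000000 counts of the unadjusted library total, FCGR2A was the highest of the Fc receptor genes with a matched CDS, at 113 ± 9.75 in sgCtrl and 171 ± 7.76 in sgN6AMT1 (SD, n = 3). FCGR2C followed at 24.9 ± 3.97 and 41.1 ± 5.72, and FCGR1A at 0.722 ± 0.666 and 18.3 ± 2.74. FCGRT (0.149 ± 0.259 and 0.80 ± 1.39) and FCER1G (0 and 0.432 ± 0.748) came last and overlapped each other. The libraries of FCGR2A, FCGR2C and FCGR1A did not overlap within either group, but in sgCtrl those of FCGR1A (0 to 1.31) overlapped FCGRT and FCER1G. Among 8607 tested genes with a CDS, FCGR1A was above 0.256% of genes in sgCtrl and above 41.0% in sgN6AMT1. FCGR2A moved from above 83.0% to above 87.3%. By the counts listed under it alone, FCGR1A in N6AMT1-depleted cells was of middling footprint density, below FCGR2C and far below FCGR2A. Footprints placed on FCGR1B are not in this value. FCGR1B and FCGR2B had no matched CDS length and are left out of this order, and the shared windows limit it for FCGR1A and FCGR2C.

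**Figure D3:**
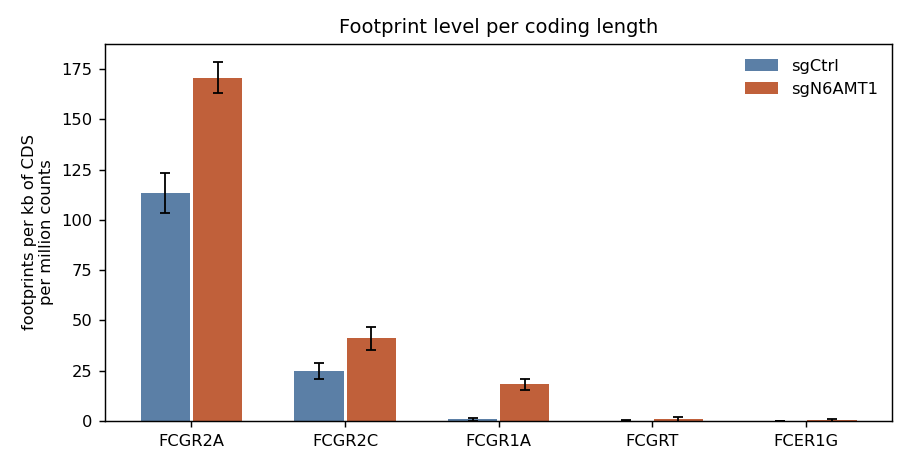
Footprints per kilobase of CDS, scaled by library total, for the Fc receptor genes with a matched CDS, in sgCtrl (blue) and sgN6AMT1 (orange); bars are means and lines the SD over 3 libraries. FCGR2A leads in both groups (113 and 171), and FCGR1A goes from 0.722 to 18.3.

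Other Fc receptors were then examined from a list of 18 genes. Of these, 14 had at most 3 counts in every library and 8 had none at all. FCGR3A and FCGR3B, the CD16 genes that lie between the FCGR2 genes, were among the 14: FCGR3A had 0, 1 and 0 counts against 0, 1 and 1, and FCGR3B had 0, 0 and 0 against 1, 0 and 0. Only 3 of the 18 could be tested, and 1 rose: FCRLA, an intracellular Fc receptor-like protein of B cells, went from 3, 0 and 2 counts to 15, 17 and 13, with no overlap (log2 fold change 3.18, SE 0.53, adjusted p = 7.82e-07 by edgeR's quasi-likelihood test, as for all adjusted p that follow). The other 2, FCRLB (log2 fold change 0.25, adjusted p = 0.683) and the cytosolic antibody receptor TRIM21 (-0.14, adjusted p = 0.656), did not pass edgeR's test. FCRLA, and in the lists that follow TYROBP, SYK, WAS, IFNGR2, IRF1, CTSS, SP110 and VCAN, met the count filter through the sgN6AMT1 libraries only, so that being high there was a condition of being tested. PIK3R1, counted among the ITAM signalling genes that fell, met it through the sgCtrl libraries only. FCRLA lies 28317 bases beyond the end of FCGR2B.

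Upstream sequences are shown because FCGR1A, FCGR2A and FCRLA hold a common stretch there. RefSeq promoters on GRCh38 (the 250 bases before a gene's start) were found for FCGR1A, FCGR2A, FCGR2B, FCER1G and FCGRT. They were searched on both strands for TTCNNNGAA, the pattern of gamma-activated sites, and for GAGGAA, a core of PU.1 sites. Of 35116 promoters, 6.57% held the first, 23.6% the second and 1.48% both. FCGR1A held both, with first bases at -93 and -46 from its start. FCGR2A held GAGGAA at -45 and no TTCNNNGAA, FCGR2B held both in 1 of its 2 promoters, and FCER1G and FCGRT held neither. In the FCGR1A stretch below (chr1:149782544-149782670, plus strand), capitals mark TTCNNNGAA and a run of 20 bases that also occurs before FCGR2A.
FCGR1A upstream: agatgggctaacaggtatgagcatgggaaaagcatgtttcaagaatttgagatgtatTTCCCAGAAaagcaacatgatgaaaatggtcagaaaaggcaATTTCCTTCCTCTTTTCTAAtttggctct

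That run of 20 bases was the longest shared by the FCGR1A and FCGR2A promoters, and among the 35116 promoters these 2 alone held it. FCGR1B and FCGR2C had no promoter among those searched. A core of 15 bases was also present before FCRLA, a gene looked at after its counts had been seen, and 3 promoters in all held that core. The core includes GAGGAA on the minus strand. It is in capitals in the lines below, from chr1:149782640-149782668, chr1:161505404-161505432 and chr1:161707179-161707207, all on the plus strand. The 3 genes belong to related families, and a match is a description of sequence only.
FCGR1A: caatttcCTTCCTCTTTTCTAAtttggct
FCGR2A: ccatttcCTTCCTCTTTTCTAAgcttgtc
FCRLA: aaatttaCTTCCTCTTTTCTAAtctgaga

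Signalling genes downstream of an ITAM, which include kinases, adaptors and lipid enzymes, were split. Of the 40 genes found, 28 were tested, 8 rose and 3 fell, with a median log2 fold change of 0.13 against 0.01 for all tested genes, of which 12.9% rose and 13.9% fell. TYROBP, which encodes DAP12, a chain with an ITAM like that of FCER1G, went from 3, 1 and 1 counts to 18, 18 and 11 (log2 fold change 3.24, SE 0.51, adjusted p = 2.57e-07), its sgCtrl counts being under the filter. TYROBP was thus measurable in the libraries in which FCER1G had 1 count. WAS, another of the genes that rose, also met the count filter through the sgN6AMT1 libraries only. The exchange factor VAV1 (0.91, adjusted p = 0.000629), the adaptor GAB2 (0.90, adjusted p = 1.49e-05) and the GTPase RAC2 (0.54, adjusted p = 2.79e-06) also rose in log2 units, while PIK3CB (-0.95, adjusted p = 1.71e-07), a catalytic subunit of PI3-kinase, and the phospholipase PLCG1 (-0.61, adjusted p = 7.18e-05) fell. The kinases that act first did not pass: SYK had 9, 12 and 5 counts against 17, 13 and 10 (adjusted p = 0.142), and LYN 83.3 ± 3.68 against 94.8 ± 4.02 CPM (adjusted p = 0.142). Of 17 genes of ITIM and inhibitory signalling 5 were tested and 0 passed in edgeR, with 0 at an unadjusted p under 0.05 and 0 called by DESeq2 or limma-voom, and the ITIM-binding phosphatases INPP5D (10 and 21 counts over the groups) and PTPN6 (9 and 13) were too low to test.

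Genes of the interferon gamma pathway and of myeloid transcription moved in both directions: 18 of 22 were tested, 5 rose and 4 fell, with a median of 0.11. Of all tested genes, 12.9% rose and 13.9% fell. SPI1, which encodes PU.1, had 21, 30 and 19 counts against 62, 69 and 47, with no overlap (log2 fold change 1.44, SE 0.20, adjusted p = 6.13e-09). IRF1, an early interferon-induced factor that met the count filter through sgN6AMT1 only, had 4, 11 and 10 counts against 32, 30 and 22 (1.84, SE 0.31, adjusted p = 1.05e-06). SOCS1, an inhibitor of JAK kinases that interferon induces, had 12, 14 and 13 counts against 75, 78 and 64 (2.57, SE 0.22, adjusted p = 8.92e-18). The receptor chain IFNGR1 (0.57, adjusted p = 0.00087) rose in edgeR's test but was not called by DESeq2 (adjusted p = 0.0524). STAT5A (-1.01, adjusted p = 2.68e-25), the kinase JAK2 (-0.54, adjusted p = 0.00492) and the phosphatase PTPN2 (-0.47, adjusted p = 0.0135) fell in edgeR's test, the last 2 without a call in DESeq2.

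Among 34 genes that interferon gamma induces, 15 could be tested, 8 rose and 1 fell, with a median log2 fold change of 0.33, where 12.9% of all tested genes rose and 13.9% fell. The cathepsin CTSS (1.74, adjusted p = 3.4e-09), APOL1 (1.17, adjusted p = 1.05e-14) and the adhesion molecule ICAM1 (0.98, adjusted p = 1.48e-12) rose most among those of at least 10 CPM. CTSS and SP110, both counted among the genes that rose, met the count filter through the sgN6AMT1 libraries only. Being high there was a condition of their being tested. The peptide transporter TAP2 fell (-0.51, adjusted p = 0.00335) without a call in DESeq2 (adjusted p = 0.0665), and 15 of the 34 had at most 3 counts in every library. For FcRn, the partner list of class I folding genes had 8 of 16 tested, 5 higher and 1 lower. B2M, the light chain of FcRn, had 828, 1185 and 879 counts against 1736, 1737 and 1352, or 419 ± 12.7 against 748 ± 13.6 CPM (log2 fold change 0.84, adjusted p = 1.69e-25), beside an FCGRT at or near 0. HLA-E (0.79), TAPBP (0.72), MR1 (0.71) and CALR (0.21) rose and CANX (-0.24) fell in log2 units, MR1 without a call in DESeq2 (adjusted p = 0.0527).

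**Figure D4:**
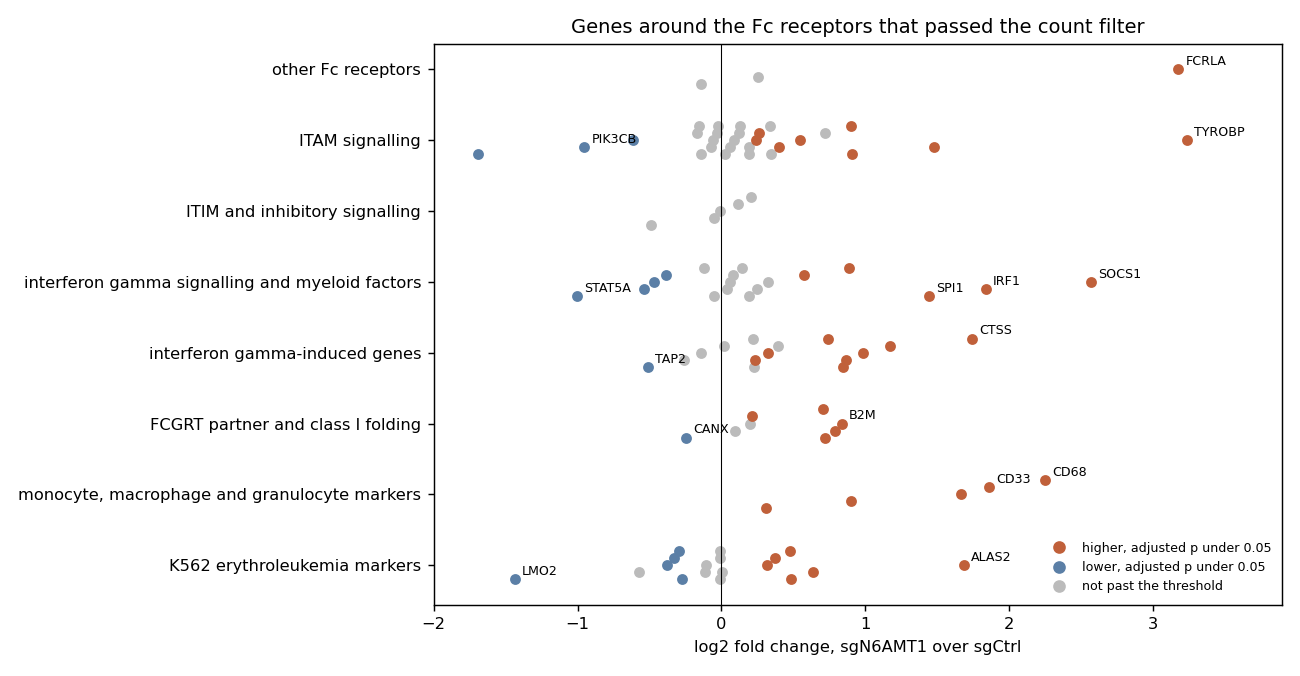
Log2 fold change (sgN6AMT1 over sgCtrl) of every tested gene in 8 gene lists, 1 point a gene; orange and blue mark genes higher and lower at an adjusted p under 0.05 in edgeR, grey the rest, and vertical offsets within a list only separate points. TYROBP (3.24) and FCRLA (3.18) lie furthest to the right, and the 5 tested myeloid markers are all orange.

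Markers of monocytes, macrophages and granulocytes, the cells in which CD64 is best known, were examined as a whole list. The list was chosen with earlier results of these data known, so its direction is no independent evidence. Of 33 in the table, 22 had at most 3 counts in every library and 10 had none, among them the defining monocyte markers CD14 and CD163. The 5 that were tested passed in edgeR as higher: CD68 (8.48 ± 1.36 to 41.4 ± 4.14 CPM, log2 fold change 2.25), CD33 (7.59 ± 2.01 to 27.3 ± 3.92 CPM, 1.86), VCAN (1.66), LYZ (0.90) and CYBA (0.31). VCAN, with 1, 9 and 4 counts against 18, 13 and 11, met the count filter through sgN6AMT1 only and was not called by DESeq2 (adjusted p = 0.0526). Of all tested genes, 12.9% were higher and 13.9% lower. The list summed to 225 to 260 CPM in sgCtrl and 389 to 413 CPM in sgN6AMT1, and its part in the FCGR1A difference was not tested. The K562 list of 18 markers was tested throughout, with 6 higher and 5 lower and a median of -0.01. Its largest changes were in ALAS2, the erythroid heme enzyme (1.68, adjusted p = 1.59e-27), and the erythroid and stem cell factor LMO2 (-1.44, adjusted p = 1.39e-11). Of 13 markers of T, B and NK cells 1 was tested (CD3D) and 0 passed in edgeR, with 1 at an unadjusted p under 0.05 and 0 called by DESeq2 or limma-voom, and of 11 fibroblast and epithelial markers 6 were tested and 3 rose, the keratins KRT8, KRT18 and KRT19.

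Genes near the receptors were also compared. Over the 4 windows together 33 of 100 tested neighbours passed, beside 26.9% of all tested genes. Among those that passed, FCRLA, CD84, SLAMF6, CTSS, CA11 and PLEKHA4 met the count filter through the sgN6AMT1 libraries only. SH2D1B and ATF5 met it through the sgCtrl libraries only. For these genes, being high in that group was a condition of being tested. Within 1 Mb of FCGR1A 28 other genes were tested, 4 rose (PDE4DIP, APH1A, ECM1 and CTSS, named after their values were seen) and 9 fell, with a median of -0.13. The 9 were all histone genes of the HIST2 cluster, some of them near-identical copies. Around the FCER1G to FCGR2B interval 29 were tested, 7 rose and 2 fell (median 0.06). Around FCGRT 40 were tested, 6 rose and 5 fell (0.09), and around FCGR1B 3 were tested and 0 passed in edgeR (0.02), with 1 at an unadjusted p under 0.05 and 0 called by DESeq2 or limma-voom.

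The genes whose log2 CPM followed the FCGR1A plus FCGR1B sum most closely over the 6 libraries were ANXA5 (Pearson r = 0.999), SOCS1 (0.998), CD24 (0.998), UBB (0.997) and PIK3CG (0.997), out of 7800 genes compared. The 6 points fall into 2 groups of 3, so r mostly records a clean separation of the groups, and 34 genes reached at least 0.99. Sizes differed widely among them: CD24 went from 15.4 ± 5.30 to 172 ± 17.2 CPM (SD, n = 3), and UBB from 1606 ± 27.3 to 2015 ± 17.9 CPM.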

How the data were processed

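Ribosome footprints were measured in 6 K562 libraries, 3 per group, grouped by the labels. The authors trimmed reads with cutadapt, kept footprints of 26 or 34 bases, removed rRNA and tRNA reads after HISAT2 mapping to GRCh38, and mapped the rest with Bowtie2 to 1 canonical transcript per gene (Ensembl 84). The deposited values are whole-number counts per transcript, neither normalized nor pooled. The methods describe both P-sites summed over each CDS and overlaps with a gene annotation, and which of these the table holds is not given in the sources used here. No molecular identifiers are described, so intervals cover counting error only.

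Differences were tested by edgeR 4.0.16 under R 4.3.3, with filterByExpr (minimum 10 counts), TMM factors and the robust quasi-likelihood F test, 2-sided, with Benjamini-Hochberg adjustment over 9202 genes. The 10128 genes not tested held 0.465% of counts. SE is the log2 fold change divided by the square root of F. Intervals are exact at 95%, and 3 counts were taken as the floor. Transcripts were matched by identifier, without version, to GENCODE 44 on GRCh38 (91.5% placed). The test was tested on simulated data.

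The receptor genes and all gene lists were chosen with earlier results of these data known, and no list is independent evidence. Of each list, genes past the threshold were named where at most 6 passed, otherwise the 3 largest increases and decreases with a mean of at least 10 CPM, besides genes fixed by name. Alternatives were DESeq2 1.42.0, limma-voom (limma 3.58.1), other normalizations, filters and prior counts, a replicate block, and leaving out each library. The labels call the samples separate replicates, and p-values measure the spread between them. Same-numbered samples did not deviate together (r = -0.139, 0.0351 and 0.00326), so numbers were not treated as pairs. Replicates within a group differed by more than sampling noise (chi-square per degree of freedom 1.25 to 1.68) and were all kept. Listed genes without a match by symbol were not analysed here, and results on some listed genes are not reported here.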

Additional observations from a re-analysis of the deposited data

How the results depend on the processing

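Every direction given for the receptor genes held under all alternatives run. A mean of at least 50 counts removed the FCGR1 genes, and FCER1G and FCGRT gave no value to vary. The log2 fold change was 3.70 for FCGR1A, 3.98 for FCGR1B and 4.35 for their sum with a prior count of 2, and 5.28 for FCGR1B in limma-voom. Without each library in turn it ranged from 3.96 to 5.45 for FCGR1A, 5.28 to 6.11 for FCGR1B, and 4.61 to 5.45 for the sum. FCGR2B ranged from 0.46 to 0.75. DESeq2 called 1329 genes in place of 2473, and 5 in place of 9 of the interferon gamma and myeloid factor genes. With a mean of at least 50 counts, 0 of the other Fc receptors, 7 of the ITAM signalling genes and 3 of the myeloid markers were called. Total counts without factors turned the split of calls from 1191 higher and 1282 lower to 1560 and 976. With the replicate number as a block, 2390 genes were called, of which 2362 were shared with the fit without it, and FCGR1A was at 4.67. Depth limits FCER1G, FCGRT and the sgCtrl level of the FCGR1 genes, where a few counts set the fold.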

Other observations

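Near the Fc receptor interval on chromosome 1, 2 genes of the SLAM family of immune cell receptors were also low in sgCtrl and higher in sgN6AMT1, and were named after their values were seen. SLAMF6 had 0, 4 and 7 counts in control libraries against 49, 42 and 25 in depleted ones, and CD84 had 0, 4 and 4 against 24, 18 and 10. SH2D1B, an adaptor for receptors of that family, went the other way, with 14, 19 and 10 counts against 5, 4 and 3. SLAMF6 and CD84 met the count filter through sgN6AMT1 only and SH2D1B through sgCtrl only. No p-value is given for them, though they are among the neighbours counted above as passing.

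The integrin ITGAM, a myeloid marker that did not pass the count filter, had 2, 1 and 0 counts against 17, 9 and 15. FCER2, a low-affinity IgE receptor gene, had 0, 1 and 1 counts against 7, 0 and 1, with most of them in sgN6AMT1 replicate 1. MS4A2, the beta chain of the high-affinity IgE receptor, had 1, 1 and 1 counts against 2, 2 and 3.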
